A study of Mus musculus with 6 samples.

Results

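Klk1, Bdkrb2, Kng1, Npr1, Npr2, Npr3 and Corin are genes of the kallikrein-kinin system and of natriuretic peptide signaling. They were taken by symbol, as 7 of the 33696 gene rows of the count matrices. Single cells were sequenced with the 10x Genomics method from the kidneys of 3 sham mice (Sham) and 3 DOCA-salt mice, with 1 library per mouse. All were male C57BL/6 mice aged 8 to 10 weeks. Mice of the DOCA-salt group lost the left kidney, received a 50 mg pellet of the mineralocorticoid deoxycorticosterone acetate 1 week later and drank 1% NaCl for 21 days, whereas Sham mice had a sham surgery, normal water and no pellet. Nephrectomy and DOCA-salt therefore cannot be told apart, and all p-values measure only the spread between these mice.

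UMIs (unique molecular identifiers, each a counted RNA molecule) were summed per mouse over all cells and over each cell type. Levels are given as CPM, a gene's UMIs scaled to the total of that sum in the usual way. A library held 93172739 to 137819127 UMIs, and 7701 to 9933 cells per mouse (55630 in all) were kept. The median cell of a mouse held 4787 to 9148 UMIs, of which 15.5% to 25.8% were mitochondrial. Any 2 libraries shared 18 to 41 barcode sequences. Clusters were formed without the members and named from marker genes, which gave 23 cell types, of which 19 had at least 10 cells in each mouse and were tested. One cluster of 640 cells, 88.4% of them from DOCA-salt mouse 2, stayed unnamed, and it enters no cell type, only the whole-kidney sums and the pool of unnamed cells. The 7 genes gave 273990 UMIs in the cells kept, of which Klk1 gave 255472, Corin 5267, Npr3 5001, Npr1 3968, Npr2 2174, Bdkrb2 1871 and Kng1 237.

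In the kallikrein-kinin system, tissue kallikrein (Klk1), a serine protease made in the distal nephron and released into the tubular fluid, cuts kininogen (Kng1) to release kinins. Kinins act on the B2 receptor (Bdkrb2) and are known to promote sodium excretion and vasodilation. In natriuretic peptide signaling, the membrane protease Corin cuts the precursor of atrial natriuretic peptide. That peptide acts on Npr1 and C-type natriuretic peptide on Npr2, both of which are guanylyl cyclases that make cGMP, while Npr3 lacks the cyclase and removes the peptides from the circulation. Both systems are known to oppose sodium retention and high blood pressure, which DOCA-salt brings about.

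The promoters of Klk1 and Corin, the members lower in whole DOCA-salt kidneys, and of Npr3, which was lower within 2 cell types, are shown as the 250 bases before the outermost annotated start of each gene (GRCm39, GENCODE annotation). They were searched on both strands for AGNACA, the core element bound by the mineralocorticoid and glucocorticoid receptors, and for the TATA box TATAAA. Capitals mark the AGNACA matches.
Klk1, chr7:43874475-43874724, + strand: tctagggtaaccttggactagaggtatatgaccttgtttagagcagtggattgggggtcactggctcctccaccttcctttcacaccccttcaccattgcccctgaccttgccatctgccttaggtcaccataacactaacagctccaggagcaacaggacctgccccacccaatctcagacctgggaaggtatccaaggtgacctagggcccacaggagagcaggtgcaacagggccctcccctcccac
Corin, chr5:72661925-72662174, - strand: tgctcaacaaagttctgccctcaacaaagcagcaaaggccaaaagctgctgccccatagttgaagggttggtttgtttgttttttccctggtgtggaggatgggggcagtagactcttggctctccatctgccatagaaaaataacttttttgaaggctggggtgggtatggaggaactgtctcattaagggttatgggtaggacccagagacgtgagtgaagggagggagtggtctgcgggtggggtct
Npr3, chr15:11907374-11907623, - strand: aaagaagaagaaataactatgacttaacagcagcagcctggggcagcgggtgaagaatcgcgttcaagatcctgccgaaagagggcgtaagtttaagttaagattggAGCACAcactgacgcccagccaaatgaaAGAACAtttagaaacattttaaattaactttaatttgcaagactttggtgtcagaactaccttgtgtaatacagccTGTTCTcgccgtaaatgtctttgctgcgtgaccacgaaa
The window of Npr3 held 3 AGNACA matches, beginning 143, 115 and 39 bases before the start, and those of Klk1 and Corin held 0. TATAAA was in none of the 3 windows. Of 21770 windows of the same length before protein-coding genes, 45.7% held AGNACA and 12.5% held TATAAA. These are matches of letters, and binding was not measured.

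Each of the 7 members had its highest levels in only a few of the 19 cell types tested. Klk1 was highest in connecting tubule-like, distal convoluted tubule-like and thick ascending limb-like cells, and Bdkrb2 in pendrin-positive and type A intercalated-like cells. Kng1 was highest in thick ascending limb-like cells. Corin was highest in thin limb-like cells and smooth muscle cell or pericyte-like cells. Npr1 was highest in endothelial-like and smooth muscle or pericyte-like cells, Npr2 in parietal epithelial-like cells, and Npr3 in parietal epithelial-like and capillary endothelium-like cells. Types with too few cells to test are given with each gene where its mean level there was among the 4 highest.

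**Figure D1:**
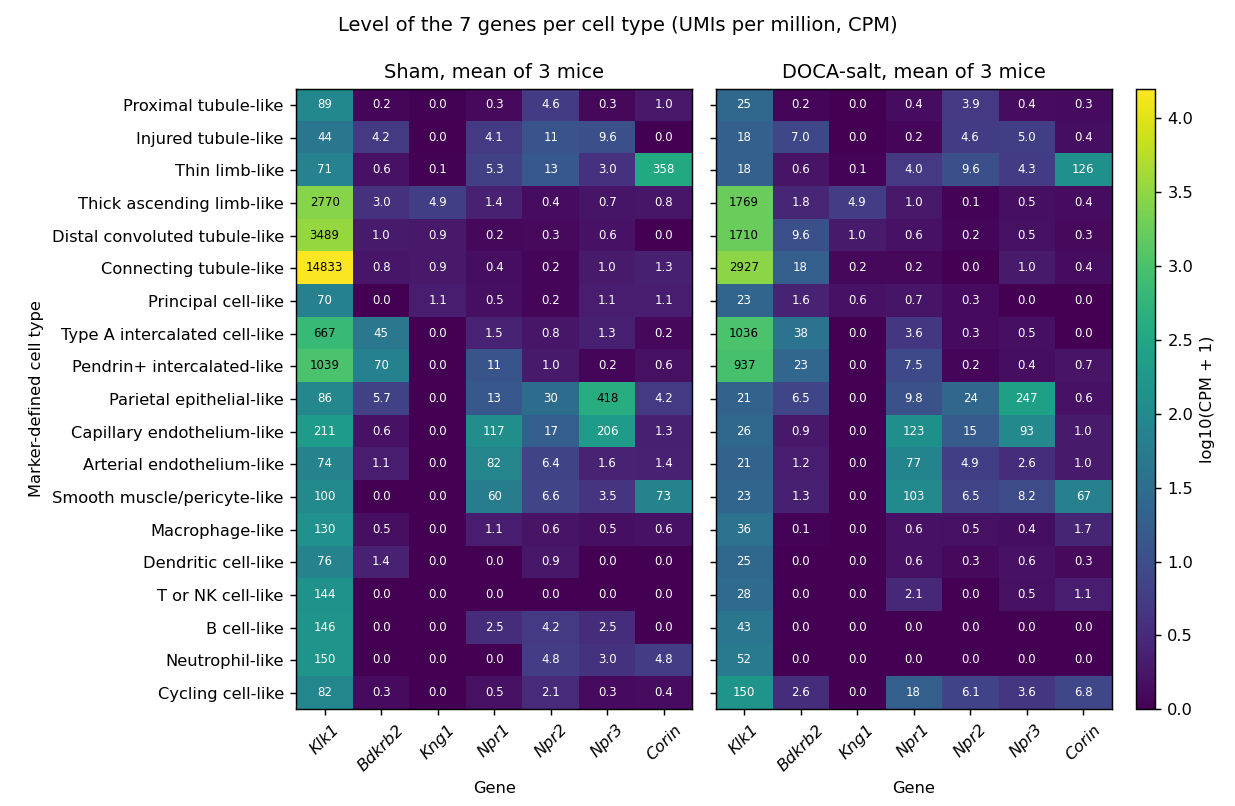
Mean CPM of the 7 members (columns) in 19 cell types (rows) of Sham kidneys and of DOCA-salt kidneys, with the mean of 3 mice printed in each cell and the color showing log10(CPM + 1). Klk1 in connecting tubule-like cells has the highest mean, 14833 CPM in Sham and 2927 CPM in DOCA-salt.

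In whole kidneys Klk1 and Corin fell, and the other 5 members did not pass the test. Klk1 was 707, 622 and 1069 CPM in the Sham mice and 346, 280 and 268 CPM in the DOCA-salt mice. Corin was 16.2, 22.5 and 15.4 CPM in Sham and 7.59, 2.81 and 4.11 CPM in DOCA-salt. For both genes every DOCA-salt mouse lay below every Sham mouse. The log2 change of Klk1 was -1.54 with a standard error (SE) of 0.23 (edgeR quasi-likelihood test, adjusted p = 0.00362), and that of Corin was -2.00 (SE 0.35, adjusted p = 0.00712). Without any 1 mouse, DOCA-salt mouse 2 included, Klk1 lay between -1.71 and -1.26 and Corin between -2.51 and -1.71, and both passed. Thus 2 of 7 members were lower and 0 were higher, against 5.72% and 11.5% of the 19658 genes tested (17.3% in either direction). The median log2 change of the members was -0.30, and that of all genes tested -0.02. In such sums, fewer cells of a type and less RNA per cell cannot be told apart.

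Npr1 was 6.48, 4.74 and 7.11 CPM in Sham and 7.66, 11.6 and 9.76 CPM in DOCA-salt. The groups did not overlap, but the log2 change of 0.54 (SE 0.20) did not pass the test (adjusted p = 0.107). The clearance receptor Npr3 was 7.39, 11.1 and 6.56 CPM against 9.06, 12.2 and 14.9 CPM (0.41, SE 0.22, adjusted p = 0.255), with overlapping groups. Without Sham mouse 2 this change was 0.65 and passed (adjusted p = 0.0406). Bdkrb2 was 3.90, 3.65 and 5.44 CPM in Sham and 3.17, 3.69 and 3.44 CPM in DOCA-salt, an overlap of the groups (-0.46, SE 0.19, adjusted p = 0.141). The groups also overlapped for Npr2, which lay between 3.40 and 5.25 CPM in the 6 mice (-0.30, adjusted p = 0.344), and for Kng1, which lay between 0.368 and 0.623 CPM (0.01, adjusted p = 0.982).

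**Figure D2:**
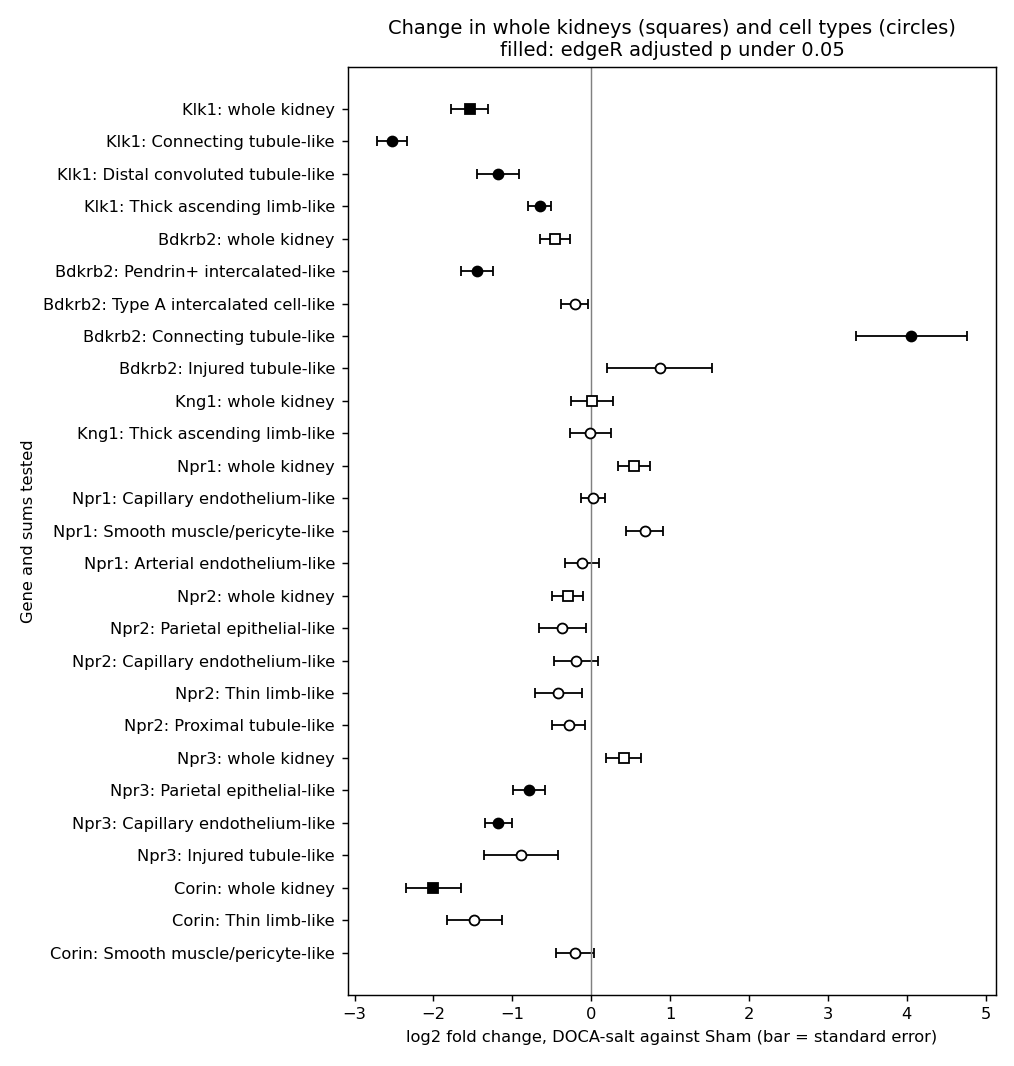
Log2 fold change of DOCA-salt over Sham with its SE (bars) for each member in whole kidneys (squares) and in some of the cell types tested (circles). Filled symbols have an adjusted p under 0.05. Klk1 is filled in whole kidneys and in connecting tubule-like, distal convoluted tubule-like and thick ascending limb-like cells, always below 0. Over all cell types in which Klk1 was tested, drawn or not, it was lower in 11 of 17. Of all tests of a gene in these types, 2.86% were called lower. In 8 of the 11 types Klk1 was near its level in T or NK-like cells, and these are not counted as changes of expression. Bdkrb2 is filled once below 0 (pendrin-positive intercalated-like cells) and once above 0 (connecting tubule-like cells). In connecting tubule-like cells Bdkrb2 passed the filter on low counts only through DOCA-salt.

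Within cell types, 43 pairs of a member and a type passed the filter on low counts. Of these 15 were lower, 11 of them for Klk1. Without Klk1 in 8 types in which it was near its level in T or NK-like cells, 7 were lower, among them Corin in proximal tubule-like cells, which had passed the filter only through Sham. The 2 that were higher (Bdkrb2 in connecting tubule-like and Npr1 in cycling cells) had passed the filter only through DOCA-salt, where they are high, and are given as a description. Over the 17 types in which a member passed the filter, 2.86% of all tests of a gene in a type were called lower and 3.51% higher, and in single types between 0.537% and 23.5% of genes were called in either direction.

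Klk1 (ENSMUSG00000063903, chr7:43874725-43879048, + strand) fell most clearly in connecting tubule-like cells, the main site of tissue kallikrein. Its level there was 13855, 14276 and 16366 CPM in Sham (14833 ± 1345, SD, n = 3) and 2759, 2458 and 3564 CPM in DOCA-salt (2927 ± 572). The groups were far apart. The log2 change was -2.53 (SE 0.19, adjusted p = 3.08e-07), beside 23.5% of all genes called in these cells, a high share. It lay between -2.68 and -2.43 when any 1 mouse was left out. Connecting tubule-like cells gave 39.4% of all Klk1 UMIs in Sham and 13.4% in DOCA-salt.

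The cells themselves were also fewer, with 153, 192 and 247 cells in Sham and 112, 98 and 120 in DOCA-salt. That was 2.18 ± 0.543% of the cells kept and 1.18 ± 0.136%, a log2 change of -0.89 (adjusted p = 0.00851 over the types). It missed the threshold without DOCA-salt mouse 2. Per cell, the median Klk1 level was 1003, 560 and 1639 CPM in Sham and 76.7, 0 and 0 CPM in DOCA-salt. The 10% of connecting tubule-like cells with the most Klk1 UMIs held 56.0% to 60.7% of those UMIs in Sham and 67.9% to 93.7% in DOCA-salt. Klk1 in DOCA-salt thus came from a smaller part of these cells. After each cell was thinned to 1000 UMIs, 60.1%, 50.2% and 66.8% of connecting tubule-like cells in Sham and 39.4%, 30.0% and 25.2% in DOCA-salt had a Klk1 UMI (59.1 ± 8.37% and 31.5 ± 7.24%, two-sided exact permutation p = 0.1, the smallest that 3 against 3 mice allow). The unthinned shares were 82.4%, 67.2% and 87.0% in Sham and 56.3%, 49.0% and 34.2% in DOCA-salt, at median depths of 8205 and 10011 UMIs. Of T or NK-like cells, which should lack Klk1, a larger share also had a Klk1 UMI in Sham at 1000 UMIs (values below). The part of such UMIs in the shares of connecting tubule-like cells was not tested. Markers of distal convoluted tubule, summed over 4 genes, were at 204 to 256 CPM in connecting tubule-like cells of Sham mice and at 469 to 766 CPM in those of DOCA-salt mice, against 6030 CPM or more in their own type. Their part in the result was not tested.

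The fitted change was smaller in distal convoluted tubule-like and thick ascending limb-like cells. Only for the former was its difference from that in connecting tubule-like cells tested. In distal convoluted tubule-like cells Klk1 was 4715, 1978 and 3773 CPM in Sham and 2206, 1677 and 1246 CPM in DOCA-salt, where Sham mouse 2 lay within the DOCA-salt range. The log2 change was -1.18 (SE 0.26, adjusted p = 0.00738, with 8.26% of all genes called), and it was lost without Sham mouse 1 (-0.91, adjusted p = 0.0819) or DOCA-salt mouse 3 (-0.99, adjusted p = 0.0637). Markers of connecting tubule, summed over 4 genes, were at 14478, 7887 and 17353 CPM in these cells in Sham and at 8678, 10447 and 9880 CPM in DOCA-salt, against 21805 to 41354 CPM in their own type. Among these 4 genes, Calb1 is also a leading gene of the distal convoluted tubule-like cluster, so the sum is not specific to connecting tubule. Sham mouse 2 was the lowest Sham mouse for these markers as for Klk1, and their part in the result was not tested. In thick ascending limb-like cells Klk1 was 3136, 2555 and 2620 CPM in Sham and 1937, 1696 and 1673 CPM in DOCA-salt, with no overlap. The log2 change of -0.65 (SE 0.14, adjusted p = 0.0480, with 1.48% of all genes called) stood close to the threshold. It was lost in 5 of the 6 fits without 1 mouse, and with mitochondrial UMIs limited to 20%, which kept 12.5% of these cells, it was -0.069 (adjusted p = 0.923). The change in connecting tubule-like cells was larger than that in distal convoluted tubule-like cells by -1.38 on the log2 scale (SE 0.23, interaction term, adjusted p = 5.28e-05, with 10.9% of genes called).

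Intercalated-like cells held Klk1 at a lower level. In type A intercalated-like cells it was 602, 580 and 818 CPM in Sham and 1439, 846 and 823 CPM in DOCA-salt. All DOCA-salt mice were above all Sham mice, mouse 1 by the most, but the log2 change of 0.66 (SE 0.21) did not pass the test (adjusted p = 0.154). In pendrin-positive intercalated-like cells, the type that secretes bicarbonate, it was 624, 1029 and 1463 CPM against 1307, 554 and 949 CPM, with overlapping groups (-0.01, SE 0.30, adjusted p = 0.988). The type had 160, 136 and 170 cells in Sham and 153, 106 and 117 in DOCA-salt. Its largest cluster had 143, 129 and 151 of them in Sham and 111, 77 and 90 in DOCA-salt. Klk1 in that cluster was 631, 1005 and 1378 CPM in Sham and 910, 292 and 958 CPM in DOCA-salt, also with an overlap. The change in connecting tubule-like cells minus that in type A intercalated-like cells was -3.16 (SE 0.17, adjusted p = 3.33e-16, with 18.3% of genes called), for a pair of types chosen after the values were seen. Markers of connecting tubule, summed over 4 genes, were at 218 to 391 CPM in type A intercalated-like cells of Sham and at 448 to 669 CPM in those of DOCA-salt. Their part in the level of Klk1 there was not tested.

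In 8 further types in which Klk1 passed the test it was near its level in T or NK-like cells, which are among them and should lack it. T or NK-like cells held 110, 68.9 and 252 CPM in Sham and 29.9, 22.7 and 31.2 CPM in DOCA-salt. At 1000 UMIs per cell 10.4%, 6.91% and 23.0% of them in Sham and 3.09%, 2.63% and 3.23% in DOCA-salt had a Klk1 UMI, at median depths of 3202 and 3910 UMIs. In proximal tubule-like cells it was 81.8, 31.2 and 153 CPM against 22.3, 21.6 and 30.5 CPM, and in capillary endothelium-like cells 201, 84.95 and 349 CPM against 18.3, 25.7 and 32.9 CPM. Sham mouse 3 was the highest and Sham mouse 2 the lowest Sham mouse in all 3 of these types. The 8 types were T or NK-like, macrophage-like, proximal tubule-like, principal cell-like, parietal epithelial-like, injured tubule-like, capillary endothelium-like, and smooth muscle or pericyte-like cells, with log2 changes from -3.08 to -1.28, in fits that called 1.77%, 5.41%, 6.5%, 7.94%, 2.86%, 12.1%, 7.72% and 4.15% of all genes in that order. Since cells that should lack Klk1 were among them, they are not counted here as changes of expression. Free RNA in the droplets was not measured, and its part in these values was not tested. Klk1 passed no test in arterial endothelium-like, dendritic-like, thin limb-like (log2 changes from -1.97 to -1.67, adjusted p from 0.0888 to 0.162, with 0.537%, 0.943% and 0.618% of genes called) and cycling cells (0.83, adjusted p = 0.350).

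**Figure D3:**
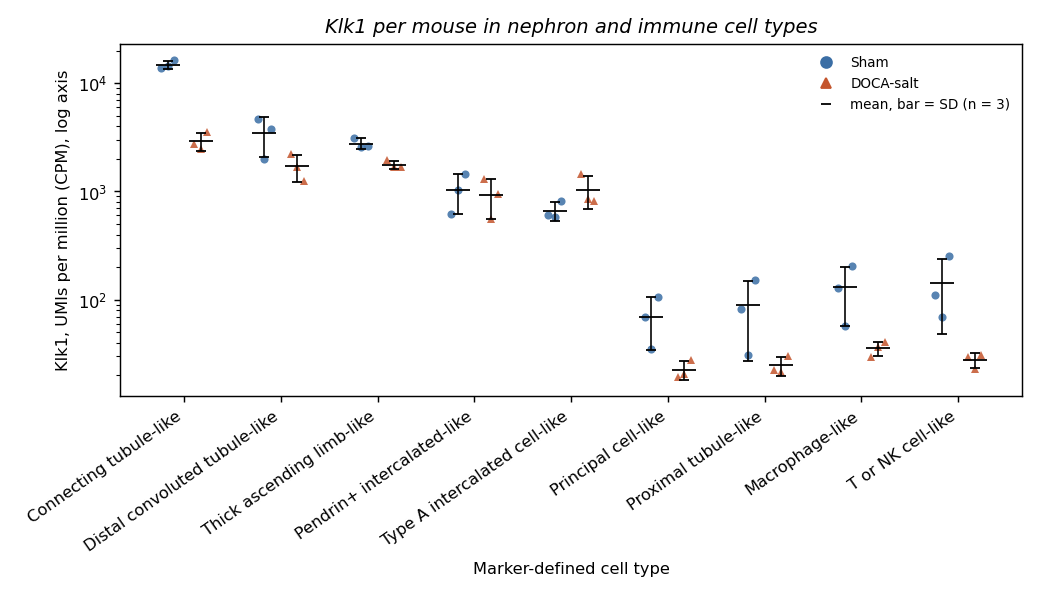
Klk1 level (CPM, log axis) in 9 cell types, with a point per mouse (circles Sham, triangles DOCA-salt), the mean as a dash and the SD of 3 mice as a bar. The groups stand apart in connecting tubule-like cells and overlap in pendrin-positive intercalated-like cells, and the cell types on the right lie far below the distal tubule.

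Urothelial-like cells were too few to test (10, 1 and 8 in Sham, 30, 33 and 22 in DOCA-salt). Klk1 in them was 3563, 0 and 2323 CPM in Sham and 539, 402 and 450 CPM in DOCA-salt. An unnamed cluster of 346 cells led by Egfem1, Trpv5, S100g and Slc26a4, genes of connecting tubule and of pendrin-positive cells, had Klk1 at 3923, 3930 and 5726 CPM in Sham and at 872, 433 and 1250 CPM in DOCA-salt. In another unnamed cluster of 318 cells, led by Pvalb and Calb1 and with Slc12a3 and Klk1 among its leading genes, it was 17774, 18359 and 6368 CPM in Sham and 1819, 6994 and 4620 CPM in DOCA-salt. The groups were apart in the former and overlapped in the latter.

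Bdkrb2 (ENSMUSG00000021070, chr12:105529383-105561503, + strand), the B2 kinin receptor, fell in pendrin-positive intercalated-like cells, where it was highest in Sham. In pendrin-positive intercalated-like cells its level was 62.2, 69.1 and 79.6 CPM in Sham (70.3 ± 8.73) and 20.6, 29.9 and 19.4 CPM in DOCA-salt (23.3 ± 5.74), from 154, 136 and 159 UMIs and 53, 48 and 30 UMIs. The groups did not overlap. The log2 change was -1.45 (SE 0.20, adjusted p = 0.00118), where 1 of the 3 members tested was called beside 6.68% of all genes. With mitochondrial UMIs limited to 20%, which kept 24.9% of these cells, it was -0.73 (adjusted p = 0.419). Markers of connecting tubule, summed over 4 genes, were at 324 to 410 CPM in these cells in Sham and at 518 to 623 CPM in DOCA-salt, against 21805 CPM or more in their own type, and their part in the result was not tested. These cells held 47.0% of the Bdkrb2 UMIs of Sham kidneys and 14.3% of those of DOCA-salt kidneys. At 1000 UMIs per cell 6.23%, 5.94% and 8.54% of them in Sham and 1.89%, 3.16% and 1.496% in DOCA-salt had a Bdkrb2 UMI (two-sided exact permutation p = 0.1). Without thinning the shares were 46.9%, 47.1% and 42.4% against 17.0%, 21.7% and 11.97%, and 0 of 774 T or NK-like cells had one, which allows up to 0.388% of cells with a UMI, by counting error only.

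Type A intercalated-like cells, which secrete acid, had 41.4, 51.2 and 43.5 CPM of Bdkrb2 in Sham and 36.8, 41.9 and 35.5 CPM in DOCA-salt. DOCA-salt mouse 2 lay within the Sham range, and the log2 change of -0.21 (SE 0.18) did not pass the test (adjusted p = 0.702, with 0 of 2 members called and 1.89% of all genes). The change in pendrin-positive minus that in type A intercalated-like cells was -1.22 (SE 0.22, interaction term, adjusted p = 8.09e-04, with 2.67% of genes called). The 2 kinds of intercalated-like cell therefore differed in the change of the receptor.

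In connecting tubule-like cells Bdkrb2 was listed with 0, 0 and 4 UMIs in Sham and 15, 36 and 15 UMIs in DOCA-salt, which is 0, 0 and 2.34 CPM against 9.99, 25.4 and 17.7 CPM. It passed the filter only through DOCA-salt, so the fitted log2 change of 4.06 (SE 0.70, adjusted p = 6.75e-04) is a description. The ratio of the pooled levels was 20.3 (exact 95% interval 7.58 to 76.8, counting error only). Markers of pendrin-positive intercalated cells, summed over 6 genes, were at 39.3 to 90.5 CPM in these cells in Sham and 45.9 to 76.3 CPM in DOCA-salt, against 6960 to 8180 CPM in their own type. They thus overlapped between the groups. In distal convoluted tubule-like cells Bdkrb2 had 1, 0 and 3 UMIs in Sham and 33, 17 and 22 in DOCA-salt, or 0.893, 0 and 2.13 CPM against 12.5, 5.17 and 11.1 CPM. It did not pass the filter there. Without the filter the fitted log2 change was 2.79 (SE 0.60), a description for the same reason, and the ratio of the pooled levels was 7.61 (2.85 to 28.7). The same markers were there at 16.9 to 34.8 CPM in Sham and 40.1 to 45.7 CPM in DOCA-salt. The change in pendrin-positive intercalated-like cells minus that in connecting tubule-like cells was -5.47 (SE 0.53, adjusted p = 1.07e-08, with 22.7% of genes called), for a pair chosen after the values were seen. It is a description too, since it rests on the connecting tubule-like sums that passed the filter only through DOCA-salt. Without Sham mouse 3, the only Sham mouse with UMIs in connecting tubule-like cells, it was -8.97.

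In injured tubule-like cells Bdkrb2 lay between 1.78 and 6.54 CPM in Sham and between 4.61 and 9.33 CPM in DOCA-salt, with an overlap (0.87, adjusted p = 0.476). Their part of its UMIs was 0.524% for Sham kidneys and 11.4% for DOCA-salt kidneys. In parietal epithelial-like cells, where it did not pass the filter, Bdkrb2 was 1.25, 11.7 and 4.32 CPM against 7.09, 6.12 and 6.19 CPM, with an overlap. In thick ascending limb-like cells it stood at 1.12 to 4.12 CPM in the 6 mice (-0.80, adjusted p = 0.439).

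**Figure D4:**
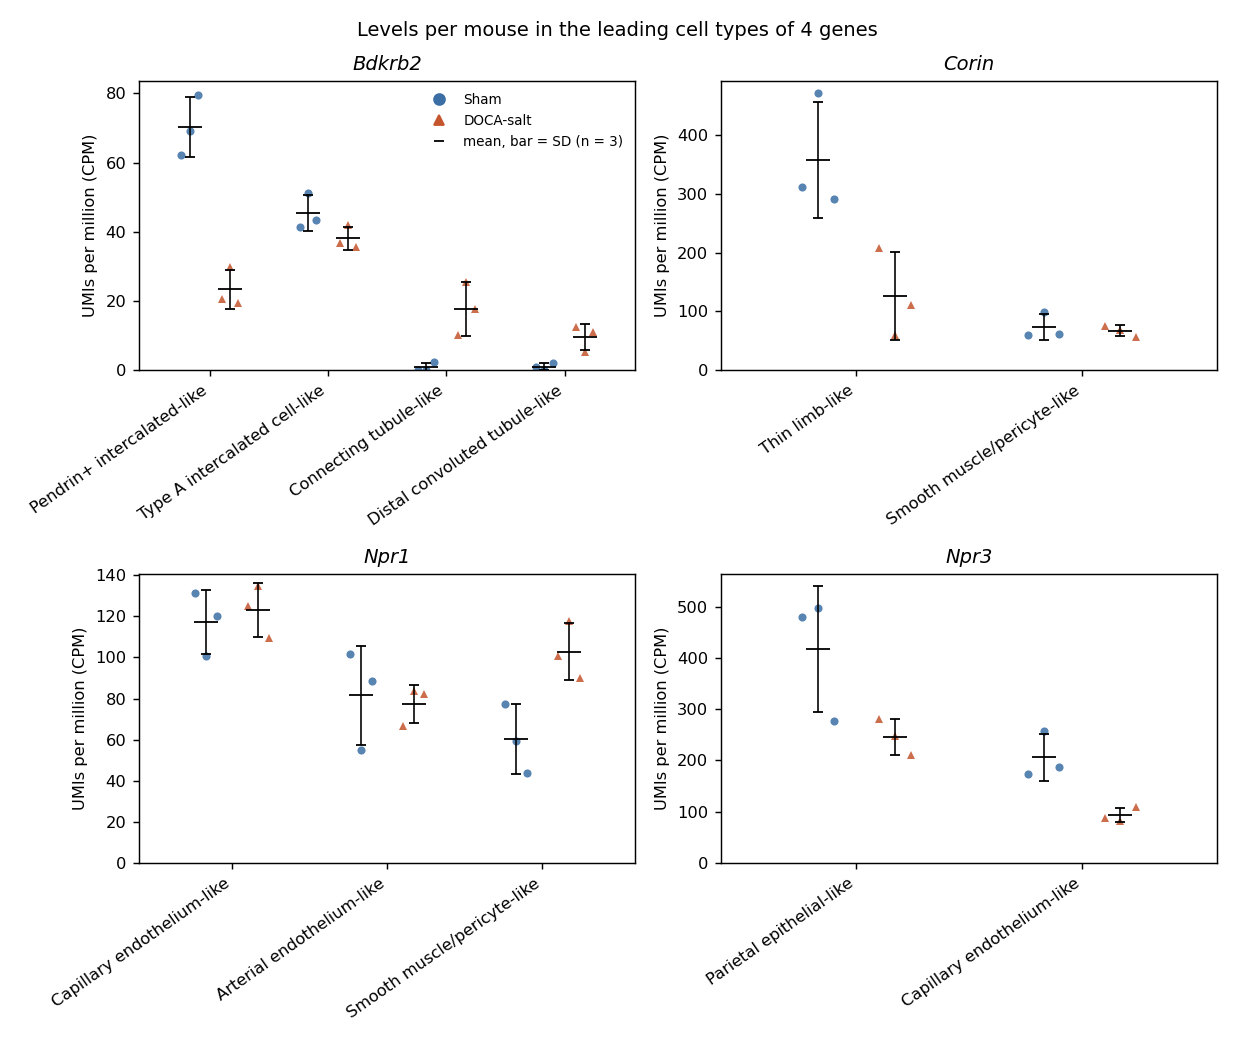
CPM per mouse (linear axes) of Bdkrb2, Corin, Npr1 and Npr3 in some of the cell types in which each is discussed, with circles for Sham, triangles for DOCA-salt, a dash for the mean and a bar for the SD (n = 3). Bdkrb2 lies lower in all DOCA-salt mice in pendrin-positive intercalated-like cells and higher in connecting tubule-like cells, and Corin lies lower in thin limb-like cells but not in smooth muscle or pericyte-like cells.

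Kng1 (ENSMUSG00000022875, chr16:22876615-22900840, + strand), kininogen, was close to the detection limit, and most of its UMIs came from thick ascending limb-like cells (72.8% for Sham, 57.5% for DOCA-salt). It was 4.89, 6.05 and 3.79 CPM there in Sham and 4.93, 4.01 and 5.69 CPM in DOCA-salt, with overlapping groups (-0.01, SE 0.26, adjusted p = 0.991). Urothelial-like cells gave 2, 0 and 1 UMIs in Sham and 16, 12 and 4 in DOCA-salt, or 12.2, 0 and 9.29 CPM against 22.5, 15.6 and 11.8 CPM, untested. Distal convoluted tubule-like cells held 0, 0 and 4 Kng1 UMIs in Sham and 5, 2 and 1 in DOCA-salt, and principal cell-like cells 4, 1 and 2 against 2, 0 and 1. Kng2 is a close paralog of Kng1, so reads shared by both may have been split or lost in the counting.

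Corin (ENSMUSG00000005220, chr5:72457290-72661924, - strand) was largely a gene of thin limb-like cells in these kidneys. Such cells gave 91.4% of the Corin UMIs of Sham kidneys and 78.1% of those of DOCA-salt kidneys. Within thin limb-like cells it was 312, 471 and 291 CPM in Sham (358 ± 98.5) and 207, 60.4 and 111 CPM in DOCA-salt (126 ± 74.5), from 1336, 1430 and 881 UMIs and 594, 213 and 190 UMIs. All DOCA-salt mice were below all Sham mice. The log2 change of -1.48 (SE 0.34) did not pass the test (adjusted p = 0.0947, with 0 of 4 members called and 0.618% of all genes). It passed without DOCA-salt mouse 1 (-2.07, adjusted p = 0.0117) and without the filter on low counts (adjusted p = 9.08e-19, in a fit that gave a smaller SE of 0.15).

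One thin limb-like cluster of 399 cells, led by Slc14a2, the urea transporter of the descending thin limb, Corin and Htr4, held 87.6% of all Corin UMIs. Its Corin level was 750, 1225 and 705 CPM in Sham and 656, 222 and 284 CPM in DOCA-salt, and it had 94, 82 and 94 cells in Sham and 48, 42 and 39 in DOCA-salt. Both the cells and their Corin level were thus lower in each DOCA-salt mouse. Over all thin limb-like cells the share of cells was 2.98 ± 0.191% in Sham and 1.77 ± 0.315% in DOCA-salt (-0.75, adjusted p = 0.0152, lost without DOCA-salt mouse 2 or 3). At 1000 UMIs per cell 14.4%, 17.4% and 15.05% of thin limb-like cells in Sham and 8.45%, 4.56% and 6.25% in DOCA-salt had a Corin UMI (two-sided exact permutation p = 0.1). The share in T or NK-like cells was at most 0.306%.

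Smooth muscle or pericyte-like cells had Corin at 59.4, 99.2 and 61.2 CPM in Sham and 75.0, 69.0 and 56.6 CPM in DOCA-salt, with overlapping groups (-0.21, SE 0.24, adjusted p = 0.747). The change in thin limb-like cells minus that in smooth muscle or pericyte-like cells was -1.39 (SE 0.30, interaction term, adjusted p = 0.0169, with 3.25% of genes called), and it was lost without Sham mouse 1 (adjusted p = 0.0681) or Sham mouse 2 (adjusted p = 0.0752). In proximal tubule-like cells Corin was 1.02, 0.590 and 1.25 CPM in Sham and 0.412, 0.171 and 0.358 CPM in DOCA-salt. It passed the filter there only through Sham, where it was higher, so the fitted log2 change of -1.66 (SE 0.40, adjusted p = 0.0417, lost in 5 of the 6 fits without 1 mouse) is a description. T or NK-like cells held 0, 0 and 0 Corin UMIs in Sham and 1, 1 and 0 in DOCA-salt (0, 0 and 0 CPM against 1.57, 1.62 and 0 CPM). A single UMI there thus exceeds every value in proximal tubule-like cells, so these small sums cannot serve as a reference for that level. Cycling cells had 0, 2 and 0 UMIs in Sham and 0, 0 and 25 in DOCA-salt, all of the latter from mouse 3, and neutrophil-like cells had 1 UMI in all. Of the annotated genes that overlap Corin, 3 are on the opposite strand, the lncRNA Gm20647 among them. Their reads could be told apart only if the counting used strand. Another 3, AU023070, Gm25768 and Gm23712, are on the strand of Corin, where strand cannot tell reads apart. Klk1, Npr1, Npr2 and Npr3 also overlap genes of the opposite strand, and Npr2 overlaps Gm56257 on its own. The part of such genes in the counts was not measured.

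Npr1 (ENSMUSG00000027931, chr3:90356458-90373748, - strand), the receptor for atrial natriuretic peptide, was at a like level in capillary endothelium-like cells of both groups. It was 132, 101 and 120 CPM in Sham (117 ± 15.7) and 125, 135 and 109 CPM in DOCA-salt (123 ± 12.9), with overlapping groups (0.03, SE 0.15, adjusted p = 0.948). The cells were more numerous, with a share of 3.56 ± 0.395% for Sham and 6.25 ± 1.46% for DOCA-salt (0.81, adjusted p = 0.0102, lost without DOCA-salt mouse 2 or 3). At 1000 UMIs per cell 10.3 ± 1.78% of them in Sham and 11.4 ± 0.876% in DOCA-salt had an Npr1 UMI (two-sided exact permutation p = 0.5), against at most 0.355% of T or NK-like cells. Their part of all Npr1 UMIs was 24.7% in Sham and 53.7% in DOCA-salt. Single clusters of these cells were not tested, and some held few UMIs. The cluster led by Plvap and Cd300lg held 115, 107 and 108 CPM in Sham and 55.2, 95.6 and 84.1 CPM in DOCA-salt. These came from 89, 8 and 76 UMIs in Sham and 3, 16 and 23 in DOCA-salt. That led by Gm35533 and Igfbp3 held 0 and 68.1 CPM in Sham mice 1 and 2, from 0 and 8 UMIs in 4 and 26 cells. In DOCA-salt it held 113, 103 and 86.8 CPM, from 31, 25 and 30 UMIs. Whether the clusters differed in their change was not tested. The groups overlapped in those led by Esm1, by Selp and by Exoc3l2. In the few glomerular endothelium-like cells Npr1 was 133, 55.8 and 112 CPM in Sham and 83.2, 129 and 29.8 CPM in DOCA-salt, from 2 to 29 UMIs per mouse, with overlapping groups and no test. In arterial endothelium-like cells Npr1 was 102, 54.9 and 88.5 CPM against 66.7, 83.6 and 82.1 CPM (-0.12, SE 0.21, adjusted p = 0.902). Those cells were fewer, 1.55 ± 0.290% of cells in Sham and 0.816 ± 0.157% in DOCA-salt (-0.92, adjusted p = 0.00777, lost without DOCA-salt mouse 2), and their part of the Npr1 UMIs was 25.2% and 8.36%.

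In smooth muscle or pericyte-like cells, where cGMP is known to relax the vessel, Npr1 was 77.5, 59.5 and 44.0 CPM in Sham (60.3 ± 16.8) and 101, 118 and 89.9 CPM in DOCA-salt (103 ± 14.0). The groups did not overlap, but the log2 change of 0.68 (SE 0.23) did not pass the test (adjusted p = 0.123). Capillary endothelium markers, summed over 7 genes, were at 91.96 to 495 CPM in these cells in Sham and at 717 to 1662 CPM in DOCA-salt, against 8630 to 11855 CPM in their own type. Their part in the level of Npr1 was not tested. The changes in capillary endothelium-like and in smooth muscle or pericyte-like cells differed by -0.60 (SE 0.23, interaction term), which did not pass the test (adjusted p = 0.229, with 1.93% of genes called).

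In cycling cells Npr1 had 1, 1 and 0 UMIs in Sham and 32, 48 and 14 in DOCA-salt, or 0.996, 0.605 and 0 CPM against 19.1, 23.3 and 11.4 CPM. It passed the filter only through DOCA-salt, so the fitted log2 change of 4.47 (SE 0.65, adjusted p = 8.62e-04, with 12.4% of all genes called) is a description. The ratio of the pooled levels was 28.7 (exact 95% interval 7.74 to 241). Of these UMIs, 31, 48 and 14 were in a cluster of 85 cycling cells, which had 0, 0 and 1 cells in Sham and 24, 36 and 24 in DOCA-salt. The other 642 cycling cells formed a cluster found in all mice. Capillary endothelium markers stood at 3.63 to 133 CPM in the cycling cells of Sham and at 1534 to 1846 CPM in those of DOCA-salt, and their part in the change of Npr1 was not tested. Podocyte-like cells were 23 in Sham and 1 in DOCA-salt, and gave 20 Npr1 UMIs in Sham (200, 90.6 and 203 CPM). Npr1 passed no test in parietal epithelial-like, thin limb-like, pendrin-positive intercalated-like and proximal tubule-like cells, where the log2 changes lay between -0.48 and 0.33.

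Npr2 (ENSMUSG00000028469, chr4:43631339-43651436, + strand), the receptor for C-type natriuretic peptide, passed no test in the 5 cell types in which it passed the filter. It was highest in parietal epithelial-like cells, at 35.1, 34.98 and 20.2 CPM in Sham and 19.2, 32.1 and 19.5 CPM in DOCA-salt (-0.37, SE 0.30, adjusted p = 0.643). In capillary endothelium-like cells it lay between 11.6 and 21.8 CPM in the 6 mice (-0.19, adjusted p = 0.750), and the groups overlapped in both types. Proximal tubule-like cells, which are many, gave 61.0% of the Npr2 UMIs of Sham and 45.9% of those of DOCA-salt at only 3.36 to 5.48 CPM (-0.29, adjusted p = 0.449). In thin limb-like cells it was 17.8, 9.55 and 12.9 CPM against 10.4, 11.9 and 6.43 CPM (-0.42, adjusted p = 0.690), also with an overlap. In the few glomerular endothelium-like cells it was 6.64, 7.96 and 5.32 CPM against 0, 17.8 and 29.8 CPM, untested.

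Npr3 (ENSMUSG00000022206, chr15:11839982-11907373, - strand), the clearance receptor, fell in the 2 cell types with its highest levels among those tested. In capillary endothelium-like cells it was 173, 258 and 187 CPM in Sham (206 ± 45.5) and 88.4, 82.2 and 110 CPM in DOCA-salt (93.4 ± 14.4), with no overlap. The log2 change was -1.18 (SE 0.17, adjusted p = 0.00317), where 2 of the 4 members tested were called beside 7.72% of all genes, the other being Klk1, near its level in T or NK-like cells. In parietal epithelial-like cells, which line the capsule of the glomerulus, it was 480, 498 and 277 CPM in Sham (418 ± 123) and 281, 248 and 211 CPM in DOCA-salt (247 ± 35.1). Sham mouse 3 lay within the DOCA-salt range. The log2 change of -0.79 (SE 0.20, adjusted p = 0.0452, with 2.86% of all genes called) was lost in 5 of the 6 fits without 1 mouse. The difference between the changes in the 2 types did not pass the test (0.40, SE 0.21, interaction term, adjusted p = 0.330, with 4.66% of genes called). At 1000 UMIs per cell 29.6 ± 7.69% of parietal epithelial-like cells in Sham and 22.1 ± 4.18% in DOCA-salt had an Npr3 UMI (two-sided exact permutation p = 0.2). Without thinning the shares were 68.1% to 81.8% and 75.5% to 77.6%, at median depths of 8479 and 16016 UMIs.

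The clusters of capillary endothelium-like cells differed in size between the mice, also within a group. A cluster led by Esm1 and Fabp4 had 22, 132 and 0 cells in Sham and 224, 285 and 301 in DOCA-salt, with Npr3 at 38.2 and 375 CPM in the Sham mice that had cells and at 108, 103 and 122 CPM in DOCA-salt. A cluster led by Plvap and Cd300lg, with a median of 1206 UMIs per cell, had 274, 41 and 309 cells in Sham and 19, 125 and 207 in DOCA-salt. Sham mouse 2, like the DOCA-salt mice, had more cells in the first of these clusters than in the second. Npr3 in the second was 218, 334 and 217 CPM against 36.8, 114 and 29.2 CPM, from 168, 25 and 152 UMIs against 2, 19 and 8. No DOCA-salt mouse reached a Sham mouse there, on few UMIs in DOCA-salt and without a test. In a cluster of 319 cells led by Exoc3l2 and Plvap it was 253, 254 and 199 CPM against 245, 92.2 and 187 CPM, with an overlap. In a cluster of 139 cells led by Gm35533 and Igfbp3 it was 82.9 and 8.51 CPM in the 2 Sham mice that had cells, from 1 UMI each, and 47.2, 53.3 and 121.5 CPM in DOCA-salt, from 13, 13 and 42 UMIs, with overlapping groups. At 1000 UMIs per cell 11.98%, 21.3% and 15.3% of capillary endothelium-like cells in Sham and 8.27%, 7.12% and 8.90% in DOCA-salt had an Npr3 UMI, while the unthinned shares were 21.1%, 35.4% and 20.2% against 26.0%, 23.8% and 22.6% at median depths of 2635 and 4928 UMIs.

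Fibroblast-like cells held 0.324% of the Npr3 UMIs of Sham and 26.8% of those of DOCA-salt. They were 24, 6 and 9 cells in Sham and 216, 294 and 303 in DOCA-salt (0.137 ± 0.0918% and 2.88 ± 0.383% of the cells, 4.35 on the log2 scale, adjusted p = 1.02e-10). Npr3 in them was 0, 124 and 0 CPM in Sham, from 0, 6 and 0 UMIs, and 94.9, 74.0 and 85.8 CPM in DOCA-salt, untested because of the few cells in Sham. In injured tubule-like cells it was 8.63, 13.1 and 7.12 CPM in Sham and 5.07, 4.57 and 5.30 CPM in DOCA-salt, with no overlap (-0.89, adjusted p = 0.266).

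The level of each member was also computed with the same cell type shares in every mouse. The weights covered 23 groups of cells, which were 22 cell types and the pool of all unnamed clusters, whose make-up still differed between mice, as did the clusters within a type. Podocyte-like cells, absent from some mice, were left out. Klk1 was then 772 ± 125 CPM in Sham and 303 ± 36.7 CPM in DOCA-salt, a log2 ratio of the means of -1.35 beside -1.42 at the shares each mouse had. For Corin the ratio was -1.39 beside -1.90 (15.2 ± 3.57 and 5.81 ± 2.94 CPM), and for Bdkrb2 -0.42 beside -0.34 (4.41 ± 0.458 and 3.29 ± 0.120 CPM). The groups did not overlap for these 3 genes (two-sided exact permutation p = 0.1 for each). Npr1 went from 0.66 to -0.02 (8.07 ± 1.09 and 7.94 ± 0.876 CPM, exact permutation p = 0.9), and Npr3 from 0.53 to -0.59 (12.7 ± 3.83 and 8.48 ± 0.205 CPM, exact permutation p = 0.1). Kng1 was at 0.01 and Npr2 at -0.36 (exact permutation p = 1.0 and 0.2). Without the unnamed pool the ratios were -1.23 for Klk1, -1.38 for Corin, -0.36 for Bdkrb2, 0.05 for Npr1 and -0.62 for Npr3. With the 48 clusters found in every mouse in place of the types, they were -1.30 for Klk1, -1.59 for Corin and -0.14 for Npr1, whereas Bdkrb2 (-0.26, exact permutation p = 0.2) and Npr3 (-0.38, exact permutation p = 0.4) then overlapped between the groups. These clusters leave out the capillary cluster led by Esm1 and Fabp4, which had no cells in Sham mouse 3. It held 23.3% of all Npr1 UMIs and 19.7% of all Npr3 UMIs, so the values of these 2 genes do not cover a main site of both.

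**Figure D5:**
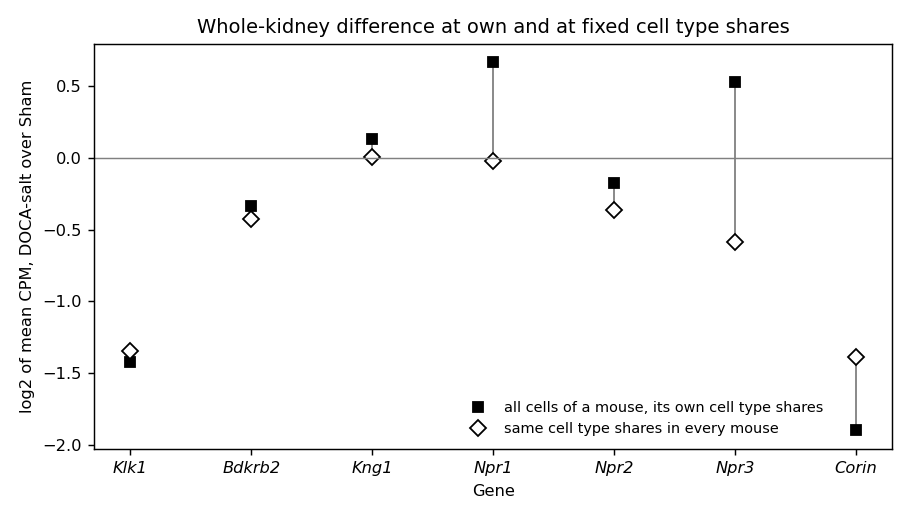
Log2 ratio of the mean CPM of DOCA-salt over that of Sham for each member, at the cell type shares each mouse had (squares) and at the same shares in all 6 mice (diamonds). Npr1 moves from 0.66 to about 0 and Npr3 from 0.53 to -0.59, while Klk1 stays near -1.4.

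Of 47 other genes of the 2 systems, 40 were tested in whole kidneys, where 10 were higher and 4 lower, beside 11.5% and 5.72% of all genes, and their median log2 change was 0.04 beside -0.02. Among the kallikrein genes next to Klk1, 2 of 11 tested were called lower, Klk1b16 (-1.23, adjusted p = 0.0249) and Klk1b21 (-2.36, adjusted p = 0.0381), and 0 were called higher. In connecting tubule-like cells all 3 of these genes that were tested were called lower, Klk1b9 (-1.39), Klk1b3 (-1.72) and Klk1b5 (-1.87), in cells in which 1166 of all 9916 genes tested were lower (23.5% called in either direction). Klk1b21 in whole kidneys and these 3 genes had passed the filter only through Sham, where they are high, so their values are descriptions. These genes are close paralogs within 270 kb of Klk1, so reads shared by them, or with Klk1, may have been split or lost in the counting. Such sharing was not measured. The 2 calls in whole kidneys had other main sites than connecting tubule-like cells. Proximal tubule-like cells held 84.7% of the Klk1b16 UMIs of Sham and 79.4% of those of DOCA-salt. Thick ascending limb-like cells held 78.6% of the Klk1b21 UMIs in each group. Klk1b21 had only 20, 13 and 23 UMIs in Sham and 9, 5 and 0 in DOCA-salt. Kng2, the other kininogen gene, fell in connecting tubule-like cells from 332, 330 and 366 CPM to 150, 136 and 100 CPM (-1.58, adjusted p = 1.15e-05). It was also called lower in capillary endothelium-like cells (-1.54), at 30.4, 18.6 and 45.3 CPM against 10.96, 12.9 and 8.72 CPM. T or NK-like cells, which should lack it, held 26.1, 9.19 and 20.8 CPM in Sham and 12.6, 4.86 and 11.9 CPM in DOCA-salt, so the call in capillary endothelium-like cells is not counted here as a change of expression. In cycling cells Kng2 was called higher (1.76). Klkb1, plasma kallikrein, fell in whole kidneys (-1.01, adjusted p = 0.00604) and in type A intercalated-like cells (-0.75), and Serping1, the inhibitor of plasma kallikrein and complement C1, rose in whole kidneys (3.35, adjusted p = 1.83e-04). Fibroblast-like cells held 28.2% of the Serping1 UMIs of Sham and 84.6% of those of DOCA-salt, at 1501 ± 385 CPM and 1594 ± 61.9 CPM.

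Among the enzymes that break kinins down, Mme (neprilysin, which also cleaves natriuretic peptides) rose in 2 distal types. In distal convoluted tubule-like cells it was 28.6, 30.2 and 25.6 CPM against 81.9, 69.9 and 89.4 CPM (1.37), and in pendrin-positive intercalated-like cells 62.6, 56.9 and 50.5 CPM against 120, 108 and 133 CPM (1.23). In connecting tubule-like cells it was 10.1, 4.51 and 6.44 CPM in Sham and 47.9, 41.0 and 23.6 CPM in DOCA-salt, but it passed the filter only through DOCA-salt, so the fitted 2.29 is a description. No DOCA-salt mouse overlapped a Sham mouse in these 3 types. Mme is also a leading gene of the type A intercalated-like cluster. Markers of that type, summed over 3 genes, were at 152 to 246 CPM in pendrin-positive intercalated-like cells of Sham. In those of DOCA-salt they were at 172 to 391 CPM. Markers of pendrin-positive cells in distal convoluted tubule-like cells were at 16.9 to 34.8 CPM in Sham and 40.1 to 45.7 CPM in DOCA-salt. The part of both in the Mme values was not tested. Mme fell in injured tubule-like (-1.29) and parietal epithelial-like cells (-0.70) and was called higher in cycling cells (0.93). Carboxypeptidase M (Cpm), a kininase of the cell surface, fell in distal convoluted tubule-like cells from 59.0, 42.3 and 51.9 CPM to 13.2, 17.3 and 10.0 CPM (-2.03). It also fell in thick ascending limb-like (-0.86) and injured tubule-like cells (-1.57), whereas it rose in T or NK-like cells (2.68) and in whole kidneys (0.65, adjusted p = 0.0308). Fibroblast-like cells held 0.0855% of the Cpm UMIs of Sham and 35.3% of those of DOCA-salt. Xpnpep2, aminopeptidase P of the membrane, rose in whole kidneys (0.79, adjusted p = 0.0153). Of other peptidases, Prcp rose in injured tubule-like cells (1.13), Ece1 was called higher in cycling cells (1.37), and Cpn1 fell in parietal epithelial-like cells (-0.84). The values of Kng2, Mme and Ece1 in cycling cells stand beside the cluster of 85 cells, 84 of them from DOCA-salt, and the capillary markers given with Npr1, whose part was not tested. Furin, a protease that activates precursors, rose in injured tubule-like cells (0.82).

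Downstream of the cyclases, both cGMP kinases rose in whole kidneys, Prkg1 by 1.49 (adjusted p = 0.00434) and Prkg2 by 0.77 (adjusted p = 0.0196) on the log2 scale. The subunits of soluble guanylyl cyclase, the receptor for nitric oxide, rose as well, Gucy1a1 by 2.38, Gucy1a2 by 2.08 and Gucy1b1 by 1.12. Of the phosphodiesterases, which degrade cGMP, Pde3a (1.26) and Pde2a (0.76) rose and Pde1a (-0.44) fell in whole kidneys. Fibroblast-like cells held 4.02% of the Gucy1a1 UMIs in Sham and 80.3% in DOCA-salt, and 1.17% and 53.7% of those of Prkg1. For Gucy1a2 the shares were 6.99% and 73.2%, for Gucy1b1 2.56% and 60.7%, for Pde3a 1.69% and 60.4%, for Pde2a 0.193% and 11.1%, and for Prkg2 0% and 10.2%. In smooth muscle or pericyte-like cells Gucy1b1 was 196, 234 and 269 CPM in Sham and 185, 195 and 173 CPM in DOCA-salt (-0.43, adjusted p = 0.228). Within types, Pde1a fell in connecting tubule-like (-0.86), parietal epithelial-like (-1.06) and proximal tubule-like cells (-0.69), and Pde3a in arterial endothelium-like cells (-1.15). Guca2a (guanylin) rose in pendrin-positive intercalated-like cells (1.11), and Guca2b (uroguanylin) in injured tubule-like cells (1.09). Pde2a, a gene of endothelial cells, was called in smooth muscle or pericyte-like cells (2.54), beside the capillary markers given above, from 8, 1 and 2 UMIs in Sham. Pde2a (4.31) and Prkg1 (4.14) were also called in cycling cells. These 3 values are descriptions, since the genes had passed the filter there only through DOCA-salt.

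The genes whose level over the 19 cell types was most like that of a member were named by Pearson's r of mean log2(CPM + 1), as a description over types that share libraries. For Klk1 these were Klk1b9 (0.956), Tmem72 (0.920) and Kng2 (0.916), and for Bdkrb2 they were Cyp2s1 (0.906), Gm8113 (0.902) and Zdhhc24 (0.892). Corin was most like Gm20647 (0.939), a lncRNA that overlaps it, Mkx (0.935) and Nr2e3 (0.875). The nearest to Npr1 were Crybb3 (0.944), Adamts4 (0.937) and Snai2 (0.935). For Npr2 they were P4ha2 (0.883), Sh3tc2 (0.879) and Lrrc58 (0.877), and for Npr3 Msmp (0.921), Nav3 (0.908) and Lbp (0.903). Kng1 was below 5 CPM in each of the 19 types and was left out.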

How the data were processed

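Kidney cells of 3 sham and 3 DOCA-salt mice had been sequenced in 1 library per mouse. What the authors deposited are UMI counts, as filtered matrices of genes by barcodes made with Cell Ranger 9.0.0 on GRCm39 per the submitters' processing notes, without normalization or cell type names. The matrix headers name an earlier release. The study's own cell analysis used Seurat 4.0.0 in R 4.0.3.

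A barcode needed 170 genes and 500 UMIs or more, and no more than 50% of its UMIs could be mitochondrial or 5% hemoglobin. That left 60561 of 76774 barcodes, and 4931 were removed as doublets by Scrublet score (DoubletFinder and Harmony were not used here, and free RNA was not corrected for). In scanpy 1.11.5 (Python 3.11.15), 2000 variable genes without the members and the other genes of both systems gave 30 principal components, 15 neighbors and Leiden clusters (igraph 0.11.9) at resolution 1. Clusters high in endothelial markers were then clustered again in the same way, with variable genes chosen anew. Clusters took the name of the class whose markers were highest. A cluster stayed unnamed with under 3 markers detected, with markers of another class prevailing among its 10 leading genes, or with over 80% of its cells from 1 mouse. In each library pair, counts differed beyond sampling noise. The members, gene lists and tests were chosen with earlier results of these data known.

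UMIs summed per mouse and type (at least 10 cells in each mouse) were compared with edgeR 4.0.16 in R 4.3.3 (filterByExpr, TMM, quasi-likelihood F test), with p-values adjusted by Benjamini-Hochberg over all genes of a fit and a threshold of 0.05. The standard error is the log2 change over the square root of F. Differences between 2 types were tested by an interaction term with each mouse as a block, for the 2 types with the highest levels. Exact permutation tests used scipy 1.17.1. Intervals, limits and thinned shares cover counting error only. Text names the members in the 4 types with the highest levels and in types with at least 10% of their UMIs, other genes of both systems that passed in whole kidneys or, at a mean of at least 20 CPM, in a type, and the 3 genes most like a member. Promoters were read from the GRCm39 genome with GENCODE positions. Scripts were tested on simulated data.

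Results were computed again with DESeq2 1.42.0, with DESeq2 size factors or no factors in edgeR, unfiltered, with each mouse left out, with a block for the number of the mouse, with a mitochondrial limit of 20%, with doublets kept, at Leiden resolution 2, and with other thinning and other weights. Leiden resolution 2 was run without the second clustering of endothelial-like cells, so it differs in more than resolution.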

Additional observations from a re-analysis of the deposited data

Results flagged for a closer look

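For 5 results the change of a member differed between 2 cell types of the same mice, by an interaction term in edgeR on the sums of both types. Each value is the log2 change in the first type minus that in the second. For Klk1 in connecting tubule-like against distal convoluted tubule-like cells it was -1.38. For Bdkrb2 in pendrin-positive against type A intercalated-like cells it was -1.22. For Corin in thin limb-like against smooth muscle or pericyte-like cells it was -1.39. Another 2 pairs were chosen after the values were seen, Klk1 in connecting tubule-like against type A intercalated-like cells (-3.16) and Bdkrb2 in pendrin-positive intercalated-like against connecting tubule-like cells (-5.47). In the latter, the connecting tubule-like sums had 0, 0 and 4 UMIs in Sham and passed the filter only through DOCA-salt, so the value is a description.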

How the results depend on the processing

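Over 75 results with a test, 907 values were computed under an alternative. Of these 810 kept their direction and their side of the threshold, 55 lost it, 17 gained it and 25 had the opposite sign. With mitochondrial UMIs of at most 20%, Klk1 in thick ascending limb-like cells was -0.069 and Bdkrb2 in pendrin-positive intercalated-like cells -0.73, and neither passed. Bdkrb2 was 0.14 in whole kidneys and 0.25 in type A intercalated-like cells, Npr1 in capillary endothelium-like cells -0.023, Klk1 in pendrin-positive intercalated-like cells 1.15, and the number of connecting tubule-like cells -0.71 (adjusted p = 0.0503). That limit kept 12.5%, 24.9% and 26.7% of thick ascending limb-like, pendrin-positive and type A intercalated-like cells. Without doublet removal Klk1 in thick ascending limb-like cells (-0.62) and Npr3 in parietal epithelial-like cells (-0.63) lost the call, and Kng1 in thick ascending limb-like cells was 0.029, Npr1 in capillary endothelium-like cells -0.0052 and Npr2 in thin limb-like cells 0.43. At Leiden resolution 2, also without the second clustering of endothelial-like cells, Npr1 in capillary endothelium-like cells was -0.039. Corin in smooth muscle or pericyte-like cells was then 0.079 and Klk1 in pendrin-positive intercalated-like cells 0.031, and 1 member change was higher within types in place of 2. Without the filter 7 were higher, and Corin in thin limb-like cells passed at -1.48. With DESeq2 size factors Klk1 in thick ascending limb-like cells was -0.65 and did not pass (adjusted p = 0.0508), and by library size only Npr3 in parietal epithelial-like cells was -0.77 (adjusted p = 0.0536). The causes were not tested.

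Thinning to 2000 UMIs took the share of cells with a Bdkrb2 UMI, DOCA-salt minus Sham, to -8.89 percentage points and no thinning to -28.5 (-4.72 at 1000 UMIs). Without thinning the differences were 7.25 for Kng1, 19.7 for Npr1, 11.5 for Npr2 and 3.12 for Npr3, in cells that were deeper in DOCA-salt. With equal weights of the types the ratio was -0.28 for Bdkrb2 and 0.63 for Kng1, and with clusters in place of types it was -0.26 for Bdkrb2.

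Without 1 mouse, the log2 change in whole kidneys lay between -0.20 and 0.15 for Kng1 and between 0.25 and 0.65 for Npr3. Klk1 lay between -1.47 and -0.91 in distal convoluted tubule-like, -0.74 and -0.55 in thick ascending limb-like and -0.31 and 0.37 in pendrin-positive intercalated-like cells, and Kng1 between -0.14 and 0.11 in thick ascending limb-like cells. Npr1 lay between -0.072 and 0.10 in capillary endothelium-like, -0.34 and 0.043 in arterial endothelium-like, -0.61 and 0.018 in parietal epithelial-like and -0.24 and 0.74 in proximal tubule-like cells. Npr2 in capillary endothelium-like cells lay between -0.35 and 0.027, and Npr3 in parietal epithelial-like cells between -1.01 and -0.66. Corin lay between -2.07 and -1.13 in thin limb-like and -0.34 and 0.051 in smooth muscle or pericyte-like cells, and the difference of these changes between -1.83 and -0.96. Of the members 0 to 1 were higher in whole kidneys, and 9 to 17 changes were lower within types (9 without Sham mouse 1 and 9 without DOCA-salt mouse 3, against 15 with all mice, 8 of which are Klk1 in types near its T or NK-like level). The log2 change of the number of cells lay between -1.08 and -0.78 for connecting tubule-like, -0.89 and -0.63 for thin limb-like, 0.68 and 0.99 for capillary endothelium-like and -1.09 and -0.82 for arterial endothelium-like cells.

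Same-numbered mice deviated from their group means with correlations of -0.02, -0.41 and -0.05, so they did not deviate in the same direction. For mice with different numbers the correlations lay between -0.26 and 0.27. Deviations from a mean of 3 mice depend on each other, so these values cannot show whether mice shared a batch. With the number as a replicate block, Klk1 in thick ascending limb-like cells was -0.65 with an adjusted p of 0.221, and in whole kidneys 1619 genes were higher and 419 lower, against 2268 and 1124 without it. Scaling by library size only took the median log2 change of all genes to 0.17 in connecting tubule-like cells and to -0.15 in pendrin-positive intercalated-like cells. It gave 1766 higher and 713 lower genes in the former (1163 and 1166 with TMM) and 213 and 741 in the latter (328 and 329). The added pairs of types, and leaving out mice for pairs of types, shares and fixed weights, and the other groups of cells for fixed weights, were chosen after seeing the data. Depth limits Kng1 and the low counts of Bdkrb2 in connecting tubule-like and distal convoluted tubule-like cells and of Npr1 in cycling cells, and types with under 10 cells in a mouse were not tested.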

Other observations

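Klk1 in the cells of all unnamed clusters together was 2528, 2170 and 3054 CPM in Sham and 545, 429 and 791 CPM in DOCA-salt, and these cells held 13.9% of the Klk1 UMIs in Sham and 10.4% in DOCA-salt. Bdkrb2 in the unnamed cluster led by Egfem1, Trpv5, S100g and Slc26a4 was 30.0, 37.0 and 55.9 CPM in Sham and 31.1, 45.2 and 28.1 CPM in DOCA-salt, with overlapping groups. The few podocyte-like cells had Npr3 at 799, 363 and 438 CPM in the Sham mice.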
